A study of Mus musculus with 8 samples.

Results

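Zinc transporters and metallothioneins were examined in 8 Myc-CaP tumors. The 30 genes were chosen by gene name from the 38115 genes listed. They were the 10 members of the SLC30 family, the 14 members of the SLC39 family, the metallothioneins Mt1, Mt2, Mt3 and Mt4, the transcription factor Mtf1 and the vesicle zinc transporter Tmem163. All 30 were listed once in every tumor.

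Myc-CaP is a mouse prostate cancer cell line derived from a tumor driven by a Myc transgene. Cells of the androgen sensitive line (Myc-CaP/AS, AS below) or the castrate resistant line (Myc-CaP/CR, CR below) were injected into the anterior prostate of FVB male mice, either intact or castrated before injection, and RNA was extracted from the primary tumors and from metastases. There were 2 tumors in each of 4 groups: primary AS, primary CR, metastatic AS and metastatic CR. Tumors are numbered within each group only to name them. The labels call the metastases matched without giving the pairs, so primary and metastatic tumors may share a mouse and p-values measure only the spread between these tumors. The age of the mice, the site of each metastasis and the host of each tumor are not given in the sources used here. Cell line and hormonal state of the host cannot be told apart between phenotypes. Total counts were 61237285 to 91886163 in AS tumors and 20905806 to 76887592 in CR tumors. Only primary CR1 (76887592) lay in the AS range. Primary CR2 (24909389), metastatic CR1 (40586710) and metastatic CR2 (20905806) were below every AS tumor, so depth and phenotype can only partly be told apart.

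Cells keep free zinc very low, and the families studied share that task. SLC39 (ZIP) proteins move zinc into the cytosol from outside the cell or from organelles, SLC30 (ZnT) proteins move it out of the cytosol, and metallothioneins are small cysteine-rich proteins that bind it. The transcription factor MTF1 senses zinc and switches on metallothionein genes and Slc30a1 through short metal response elements in their promoters. Healthy prostate epithelium accumulates zinc, which restrains the oxidation of citrate, and loss of zinc is a known feature of prostate cancer.

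Mt1 and Mt2 lie next to each other on chromosome 8 (GRCm38; Mt1 at chr8:94179082-94180327, Mt2 at chr8:94172664-94173568, both on the plus strand). Their coding sequences (GENCODE M21, stop codon left out) are shown because the 2 genes were the most highly expressed of the 30 and because cysteine, encoded by TGC or TGT, is the residue that binds zinc. Cysteine codons are in capitals.
Mt1: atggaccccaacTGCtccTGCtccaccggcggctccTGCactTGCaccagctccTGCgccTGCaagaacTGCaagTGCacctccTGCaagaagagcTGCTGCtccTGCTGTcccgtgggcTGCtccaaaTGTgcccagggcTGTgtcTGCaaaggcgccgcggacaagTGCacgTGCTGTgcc
Mt2: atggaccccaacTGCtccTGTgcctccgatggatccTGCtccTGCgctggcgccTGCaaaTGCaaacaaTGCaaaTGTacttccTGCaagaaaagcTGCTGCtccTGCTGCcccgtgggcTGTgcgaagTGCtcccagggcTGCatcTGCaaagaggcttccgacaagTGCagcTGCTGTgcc
Each sequence holds 183 bases, or 61 codons, of which 20 encode cysteine. The sequences share 145 of 183 bases (79.2%), and all 20 cysteine codons are at the same positions.

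The 250 bases before the RefSeq transcription start (GRCm38.p6) are shown for the 3 genes that MTF1 is best known to induce. Capitals mark the core of the metal response element, TGCACNC or TGCGCNC on either strand, where overlapping matches were counted separately.
Mt1, chr8:94178839-94179088, plus strand: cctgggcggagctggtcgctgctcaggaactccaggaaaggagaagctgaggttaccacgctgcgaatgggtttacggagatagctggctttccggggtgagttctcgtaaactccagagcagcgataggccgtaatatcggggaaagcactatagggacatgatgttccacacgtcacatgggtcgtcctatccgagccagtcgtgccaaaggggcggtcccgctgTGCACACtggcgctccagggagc
Mt2, chr8:94172368-94172617, plus strand: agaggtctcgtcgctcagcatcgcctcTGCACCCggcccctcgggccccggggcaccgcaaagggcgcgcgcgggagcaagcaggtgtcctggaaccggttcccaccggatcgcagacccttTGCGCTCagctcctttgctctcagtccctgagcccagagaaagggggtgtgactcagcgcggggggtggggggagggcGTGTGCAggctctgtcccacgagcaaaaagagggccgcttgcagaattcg
Slc30a1, chr1:191906531-191906780, plus strand: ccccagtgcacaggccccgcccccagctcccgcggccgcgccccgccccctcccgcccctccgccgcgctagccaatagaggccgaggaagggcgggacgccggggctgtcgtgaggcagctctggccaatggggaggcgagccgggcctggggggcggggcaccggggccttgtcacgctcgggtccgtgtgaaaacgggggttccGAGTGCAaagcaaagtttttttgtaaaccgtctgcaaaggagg
The window of Mt2 held 3 matches, between 223 and 50 bases before the start, and the windows of Mt1 and Slc30a1 held 1 each. For Mt1 another annotated transcript, Mt1-202, starts 152 bases after the RefSeq start. The stretch in between (chr8:94179089-94179240, GENCODE M21) held 4 more matches, shown with the bases around them.
Mt1 match 1: tcTGCACTCcgcccgaa
Mt1 match 2: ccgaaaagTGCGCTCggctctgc
Mt1 match 3: cgcctgctGGGTGCAaacccttt
Mt1 match 4: aaacccttTGCGCCCggactcgt
Of all 32851 RefSeq promoters of this length, 21.4% held at least 1 match, 5.17% at least 2 and 1.26% at least 3. Promoters were matched for 26 of the 30 genes, 31 windows in all. Of these 26, 13 had a match in any window, 4 of them at least 2 in 1 window (Mt2, Slc30a2, Slc30a4 and Slc30a10). These are counts of genes, some with more than 1 window, whereas the percentages above are of single promoters. The window of Mtf1 held none. A match describes these letters only.

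Levels were compared between genes per length, as CPM (counts scaled to one library total) per kilobase of annotated exon. Mt2 (mean 158, range 124 to 223 over the 8 tumors) and Mt1 (mean 134, range 95.2 to 180) were the highest of the 30, and their ranges overlapped. The order of these 2 genes depends on the length used. Per kilobase of its spliced transcript of 3 exons, which leaves out a retained intron, the level of Mt1 averaged 305 against 181 for the same of Mt2, and Mt1 was the higher in 8 of 8 tumors. Next came Slc39a7 (42.9, range 30.4 to 55.6), which releases zinc from the endoplasmic reticulum, and its range did not overlap those of its neighbours in the order. Slc39a1 (21.8), a ZIP of the plasma membrane linked to zinc uptake by prostate cells, and Slc30a4 (20.9), a ZnT of intracellular vesicles, followed with overlapping ranges. From Slc39a1 downward every gene overlapped the next one in the order.

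Slc39a11 (12.3), Slc30a5 (11.8), Slc30a7 (7.50), Slc30a9 (6.92), Slc39a13 (6.03), Slc30a6 (4.88), Slc39a9 (4.62), Slc39a6 (4.06) and Slc39a10 (3.63) made up the middle of the range by mean level. Several of these act on the Golgi or secretory pathway: Slc30a5, Slc30a6 and Slc30a7 load zinc into secreted enzymes, and Slc39a9 and Slc39a13 are ZIPs of the Golgi region. Slc30a1 (2.51), the exporter of the plasma membrane, Mtf1 (2.21), Slc39a14 (2.05), Slc30a2 (1.82), Slc39a3 (1.13), Slc39a4 (0.701) and Slc39a8 (0.184) were lower. The remaining 9 genes averaged 0.0806 or less. They included Mt3 (0.00187), the metallothionein of brain, Mt4 (0.0806), that of stratified squamous epithelium, Slc30a8 (0.00914), the transporter of insulin granules, and Slc30a3 (0.0708), that of synaptic vesicles. Mt4 had counts in both primary CR tumors and 0 in the other 6, and Mt3 had 1 count in 1 tumor. Per kilobase of the longest coding transcript the first 3 places and the last 7 were the same, and in the middle Slc30a5 rose to place 4.

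**Figure D1:**
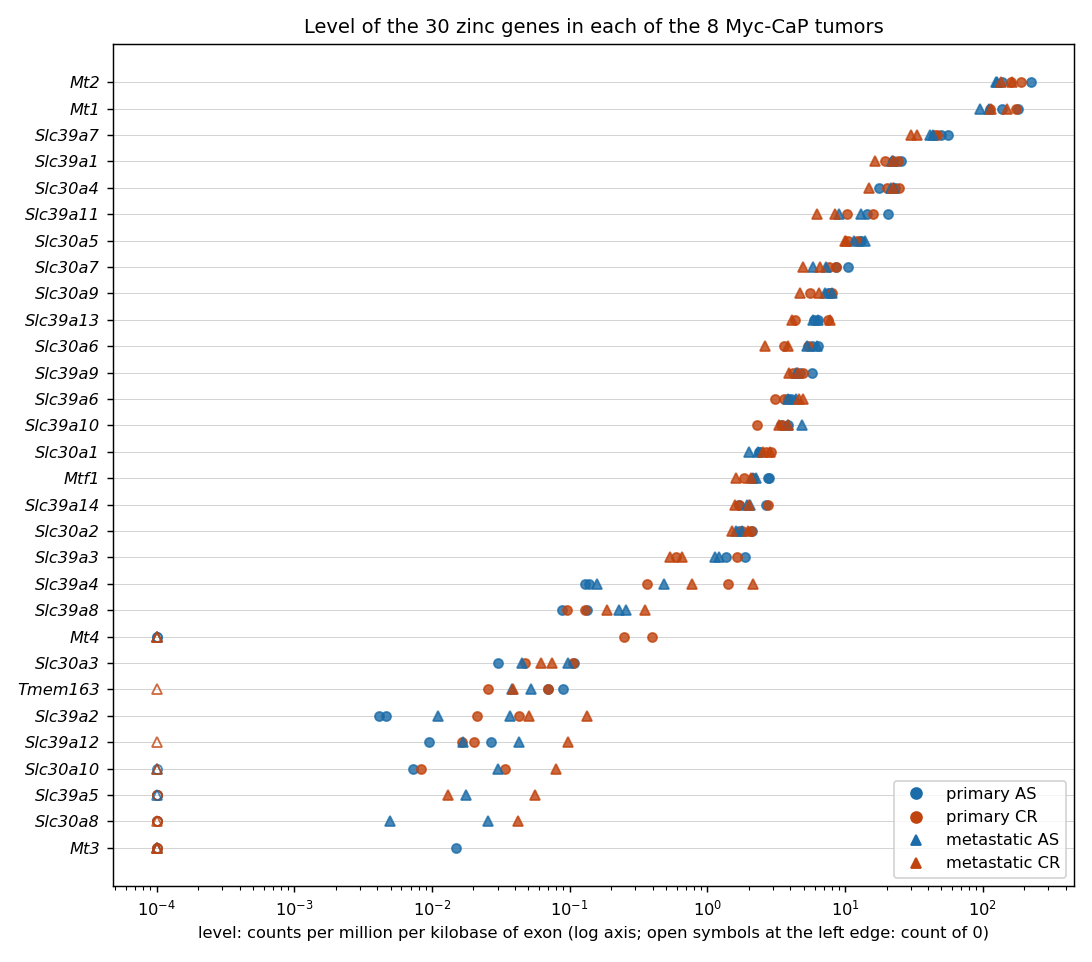
Level of each of the 30 genes in each tumor, in CPM per kilobase of exon on a log axis. Circles are primary and triangles metastatic tumors, blue AS and red CR, and open symbols at the left edge are counts of 0. Mt2 and Mt1 lie above 95 in every tumor, and the spread among tumors is widest among the genes of low level.

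Some of these counts may be shared with other genes. Of the exon bases of Slc39a7, 80.7% also belong to Gm20427, a gene annotated on the same strand, which was listed with 90.4% to 96.5% of the count of Slc39a7 in each tumor. Of the exon bases of Mt2, 73.5% overlap the antisense gene Gm45774, and 27.7% of the windows of read length along Slc39a1 match Slc39a1-ps, a pseudogene listed with 8.85% to 22.3% of its count. Mtf1, Slc30a1 and Slc30a7 overlap antisense genes over 8.10%, 8.92% and 16.0% of their exon bases. The library kit keeps strand, but whether counting used it is not given in the sources used here. Mt1, Slc39a4, Slc39a8, Slc39a11 and Slc30a6 shared no exon base and no window.

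Of the 30 genes, 23 passed the filter on low counts and could be tested. The other 7 (Slc30a8, Slc30a10, Slc39a2, Slc39a5, Slc39a12, Mt3 and Mt4) had at most 18 counts in any tumor. The question of the study was which transcripts differ between primary and metastatic tumors. By edgeR's quasi-likelihood test 0 of 17104 genes (0%) passed an adjusted p of 0.05 in that comparison, and 0 of the 23 zinc genes. At an unadjusted p under 0.05 there were 459 genes (2.68%), among them 3 zinc genes, Slc39a8, Slc30a7 and Slc39a11. DESeq2 and limma-voom also called 0 genes, with 611 and 440 at an unadjusted p under 0.05. These fits had no term for phenotype. With phenotype as a covariate edgeR put 1146 genes under that unadjusted p, 4 of them zinc genes, and called 0. With a block for possible pairs it put 887 to 1186 genes there and called 0. Between phenotypes, with tumor type as a term, 2081 of 17104 genes (12.2%) passed, and the 1053 that were higher in CR tumors made up 6.16% of all genes tested. Of the 23 zinc genes 1 passed, Slc39a4, which is 4.35% of those tested and higher in CR tumors.

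The median log2 fold change of the 23 genes was -0.16 for metastatic against primary, beside -0.03 over all genes tested, and 18 of 23 were negative beside 9203 of 17104. Between phenotypes the median was -0.14 beside -0.01, and 17 of 23 were negative beside 8684 of 17104. The median absolute log2 fold change between phenotypes was 0.21 for the zinc genes and 0.38 over all genes. The summed normalized count of the 30 genes was 61264 to 73203 in primary and 52012 to 59234 in metastatic tumors. The sums of its main parts overlapped between tumor types. They were 13898 to 21078 against 11351 to 16753 for the metallothioneins and 24386 to 26505 against 20035 to 25339 for SLC30. For SLC39 they were 20236 to 24351 against 16989 to 21397. Such sums were not compared with sums of other genes. Normalized counts are counts divided by the TMM-adjusted library size and scaled to its mean. In bulk tumors fewer cells of a type and less RNA per cell cannot be told apart.

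**Figure D2:**
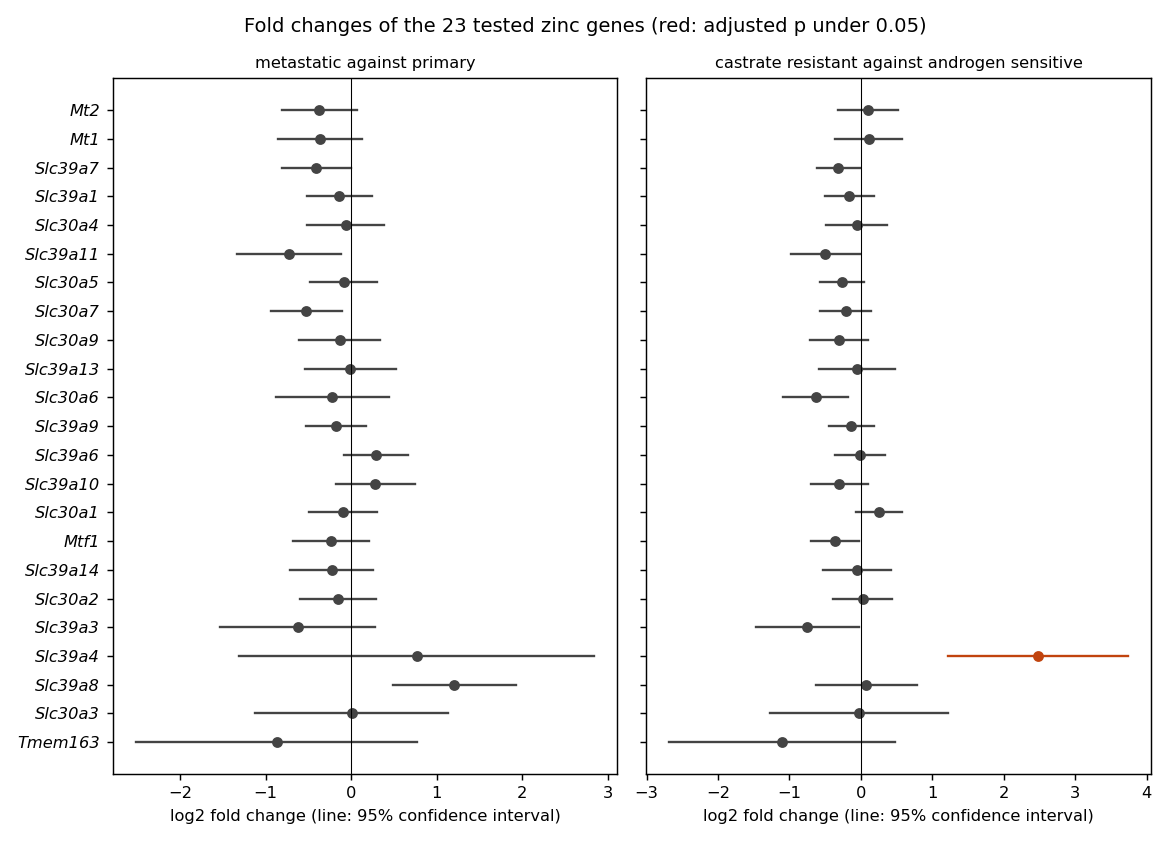
Log2 fold change (point) and 95% confidence interval (line) of the 23 tested genes for metastatic against primary (left) and CR against AS tumors (right), in the order of their level. Red marks an adjusted p under 0.05. Slc39a4 in the right panel, at 2.47, is the only red point.

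No member of the metallothionein system passed the test in either comparison. Mt1 had normalized counts of 13297, 10213, 8334 and 12819 in primary AS1, AS2, CR1 and CR2, and of 7035, 8152, 11034 and 8536 in metastatic AS1, AS2, CR1 and CR2. The 2 highest values were in primary tumors, and the groups overlapped by tumor type and by phenotype. Its log2 fold change was -0.36 (SE 0.22, 95% interval -0.85 to 0.13) in metastatic against primary tumors and 0.11 (SE 0.21, -0.37 to 0.58) in CR against AS tumors. The edgeR adjusted p was 0.997 and 0.775.

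For Mt2 the normalized counts were 7780, 4850, 5555 and 6608 in primary AS1, AS2, CR1 and CR2, and 4316, 4437, 5718 and 4699 in the metastatic tumors in the same order. Primary AS1 was the highest for both metallothioneins, and again the groups overlapped. The log2 fold change of Mt2 was -0.37 (SE 0.20, -0.81 to 0.07) by tumor type and 0.10 (SE 0.19, -0.32 to 0.52) by phenotype, with edgeR adjusted p of 0.997 and 0.765. The ratio of Mt1 to Mt2 counts stayed between 1.50 (primary CR1) and 2.11 (primary AS2).

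Mtf1, the zinc sensor, had normalized counts of 1449, 1489, 980 and 1132 in primary AS1, AS2, CR1 and CR2, and of 1137, 1187, 1095 and 854 in the metastatic tumors in that order. All 4 AS tumors were above all 4 CR tumors. The difference of -0.37 on the log2 scale (SE 0.15, -0.70 to -0.03) had an unadjusted p of 0.0357 and did not pass after adjustment (edgeR adjusted p = 0.142). By tumor type it was -0.24 (SE 0.20), with overlapping groups.

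Slc30a1, the exporter that MTF1 induces, had normalized counts of 743, 751, 824 and 902 in primary AS1, AS2, CR1 and CR2, and of 722, 627, 789 and 879 in the metastatic tumors. All 4 CR tumors were above all 4 AS tumors, the opposite order to Mtf1. The difference was small, 0.26 on the log2 scale (SE 0.14, -0.07 to 0.58), and did not pass the test (edgeR adjusted p = 0.270). By tumor type it was -0.09 (SE 0.18, -0.50 to 0.31). Among the 23 genes these 2 (8.70%) had phenotypes that did not overlap, beside 3234 of 17104 genes (18.9%).

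**Figure D3:**
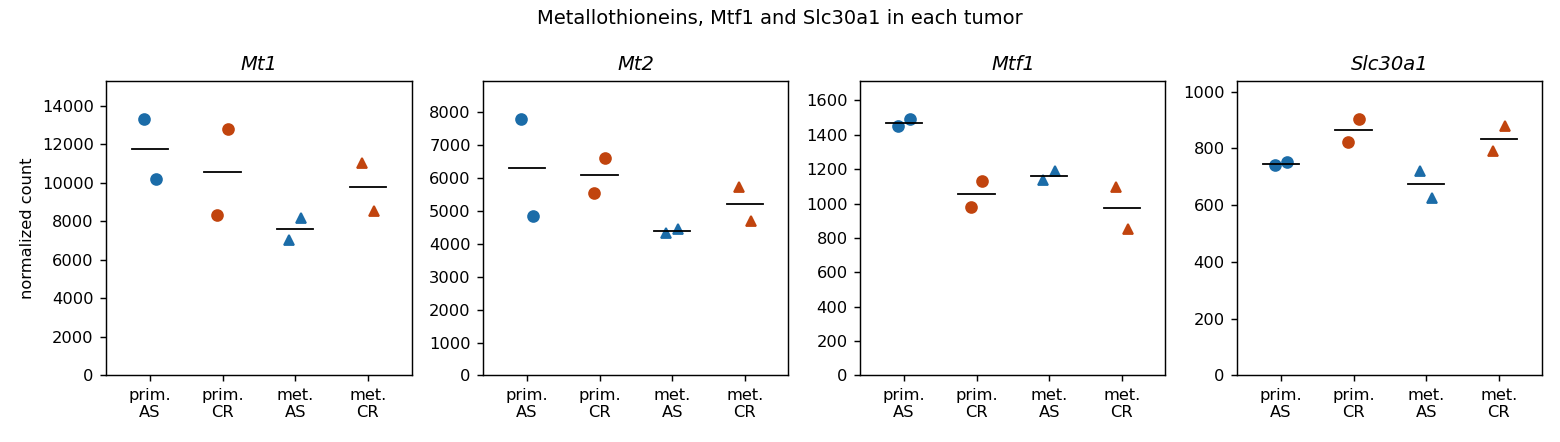
Normalized counts of Mt1, Mt2, Mtf1 and Slc30a1 in each tumor (points) with the mean of each pair (line), by group. Mtf1 is lower and Slc30a1 higher in all 4 CR than in all 4 AS tumors, while Mt1 and Mt2 overlap.

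Among the SLC30 exporters 8 of 10 were tested and 0 passed in either comparison. Their median log2 fold change was -0.12 by tumor type and -0.14 by phenotype. Slc30a7, which carries zinc into the Golgi, had the smallest p of them by tumor type. Its normalized counts were 6981, 5638, 5050 and 5682 in primary AS1, AS2, CR1 and CR2 and 4817, 3849, 4320 and 3249 in the metastatic tumors, so every metastatic tumor was below every primary tumor. The log2 fold change was -0.52 (SE 0.19, -0.94 to -0.11; unadjusted p = 0.0191, edgeR adjusted p = 0.997).

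Slc30a6, the partner with which Slc30a5 forms its transporter, stood out by phenotype. Its normalized counts were 1152, 1057, 973 and 653 in primary AS1, AS2, CR1 and CR2 and 1142, 970, 703 and 479 in the metastatic tumors. Of the 4 CR tumors 3 were below all AS tumors, and primary CR1 lay just above metastatic AS2. The log2 fold change of -0.64 (SE 0.20, -1.10 to -0.18) missed the threshold (edgeR adjusted p = 0.0743). DESeq2 put the adjusted p at 0.0353 and limma-voom at 0.0907. Without both primary CR2 and metastatic CR2, which had the lowest values, the log2 fold change was -0.38. Without primary CR1 it was -0.81. Slc30a5 itself differed by -0.26 (SE 0.13, edgeR adjusted p = 0.231).

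The other exporters differed little. Slc30a4, Slc30a9 and Slc30a2 had log2 fold changes of -0.06, -0.14 and -0.16 by tumor type and of -0.06, -0.31 and 0.03 by phenotype. Slc30a9, which acts in mitochondria, had the largest of these, with an interval of -0.71 to 0.09. Slc30a2 and Slc30a4, both known for filling milk with zinc, varied among the 8 tumors by a coefficient of variation of 11.7% and 15.4%. Slc30a3 was tested at 5 to 28 counts per tumor, too few to narrow its interval by phenotype below -1.28 to 1.22. Tmem163, a zinc-binding protein of synaptic vesicles, had at most 24 counts and 0 in metastatic CR1, and its log2 fold changes were -0.87 by tumor type and -1.10 by phenotype (edgeR adjusted p = 0.997 and 0.326).

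Among the SLC39 importers 11 of 14 were tested and Slc39a4 was the only one to pass. Slc39a4 encodes the ZIP that takes up dietary zinc in the intestine, and its loss causes the zinc deficiency acrodermatitis enteropathica. It had normalized counts of 25.6 and 23.7 in primary AS1 and AS2, 262 and 67.6 in primary CR1 and CR2, 88.7 and 29.1 in metastatic AS1 and AS2, and 396 and 142 in metastatic CR1 and CR2. Within each tumor type both CR tumors were above both AS tumors. Across tumor types the phenotypes overlapped, because metastatic AS1 was above primary CR2. The log2 fold change was 2.47 (SE 0.56, 1.21 to 3.74), or 5.56-fold, with an edgeR adjusted p of 0.0267.

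The call for Slc39a4 was lost when any 1 of 4 tumors was left out: primary AS1 (adjusted p = 0.0735), primary AS2 (0.0802), metastatic AS2 (0.0824) or metastatic CR1 (0.0913). It was also lost in primary tumors alone (0.346) and in metastatic tumors alone (0.128), with 2 tumors against 2. Its log2 fold change stayed between 1.94 and 3.08 under every alternative tried. The level was low, with raw counts of 23 to 364. By tumor type the difference was 0.77 (SE 0.92, edgeR adjusted p = 0.997), and it moved to -0.15 without metastatic CR1 and to 2.12 without primary CR1. Of 5 gut epithelium markers, which were looked at because that tissue expresses Slc39a4, 2 passed the filter and 0 were called by phenotype. The summed normalized count of the 5 was 50.2 to 97.3 in AS and 106 to 265 in CR tumors, mostly Vil1, while Fabp2, Cdx2 and Alpi were at most 14.9 in any tumor. Other epithelial lists were looked at beside it. By phenotype 12.2% of all genes passed, and 6.16% passed as higher in CR tumors, which are the shares to set beside these counts. Of 6 prostate luminal markers tested, 5 had a positive log2 fold change and 2 rose in CR tumors, Krt19 by 3.66 (SE 0.73, edgeR adjusted p = 0.0189) and Krt8 by 1.85 (SE 0.50, edgeR adjusted p = 0.0442). Of 6 pancreas acinar markers, which summed to 18.0 to 36.6 in AS and 74.5 to 170 in CR tumors, 1 was tested and rose, Cela1 by 2.15. Of 5 squamous markers, which summed to 6.62 to 42.4 in AS and 41.6 to 82.0 in CR tumors, 2 were tested and 1 rose, Krt10 by 3.58. Of 5 prostate basal markers tested, 1 passed and was lower in CR tumors, and 4 had a negative value. Of 5 hepatocyte markers tested, 1 passed as higher and 2 as lower in CR tumors. Of the lung epithelium and the kidney tubule markers 2 each were tested and 0 passed, with 1 positive and 1 negative value in each list. The part of such cells in the result was not tested.

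Slc39a8, which carries zinc, manganese and cadmium, had the largest log2 fold change and the smallest p of the 23 genes by tumor type. Its normalized counts were 39.7, 60.9, 43.1 and 58.8 in primary AS1, AS2, CR1 and CR2 and 104, 116, 85.0 and 161 in the metastatic tumors. Every metastatic tumor was above every primary tumor. The log2 fold change was 1.20 (SE 0.32, 0.48 to 1.93), or 2.31-fold, with an unadjusted p of 0.0041, and it did not pass after adjustment (edgeR adjusted p = 0.997). It ranged from 1.01 to 1.34 over the alternatives, none of which called it. By phenotype it was 0.08 (SE 0.31). Endothelial markers were summed beside it. Their total was 2596 to 3895 in primary and 3335 to 5409 in metastatic tumors. Of the 6, 5 had a positive log2 fold change, the median was 0.47 and 0 passed. Over all genes 7901 of 17104 were positive, with a median of -0.03. Erythroid markers were positive in 5 of 5 (median 0.31) and neutrophil markers in 3 of 4 (0.42). Macrophage markers were positive in 2 of 6 (-0.28) and fibroblast markers in 1 of 7 (-0.33). Hepatocyte markers were positive in 3 of 5 (0.46) and smooth muscle markers in 1 of 5 (-1.13). Kidney tubule and lung epithelium markers were each positive in 1 of 2 (0.90 and 0.13). The part of endothelial cells or of any other cell type in the value of Slc39a8 was not tested.

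Slc39a11, a ZIP linked to the Golgi, had normalized counts of 4067, 2895, 3181 and 2052 in primary AS1, AS2, CR1 and CR2 and of 2600, 1814, 1685 and 1252 in the metastatic tumors. Within each phenotype both metastatic tumors were below both primary tumors, and primary CR2 fell within the metastatic AS range. The log2 fold change was -0.73 (SE 0.27, -1.34 to -0.12; unadjusted p = 0.0233, edgeR adjusted p = 0.997) by tumor type and -0.50 (SE 0.21; edgeR adjusted p = 0.159) by phenotype. Slc39a7 was also lower in every metastatic than in every primary tumor, with a range of 4653 to 6621 against 6732 to 8530 and a log2 fold change of -0.41 (SE 0.18). Together with Slc39a8 and Slc30a7 that made 3 of 23 genes (13%) whose tumor types did not overlap, beside 291 of 17104 genes (1.7%). None of the 3 passed the adjusted test, and no test of these counts was made.

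**Figure D4:**
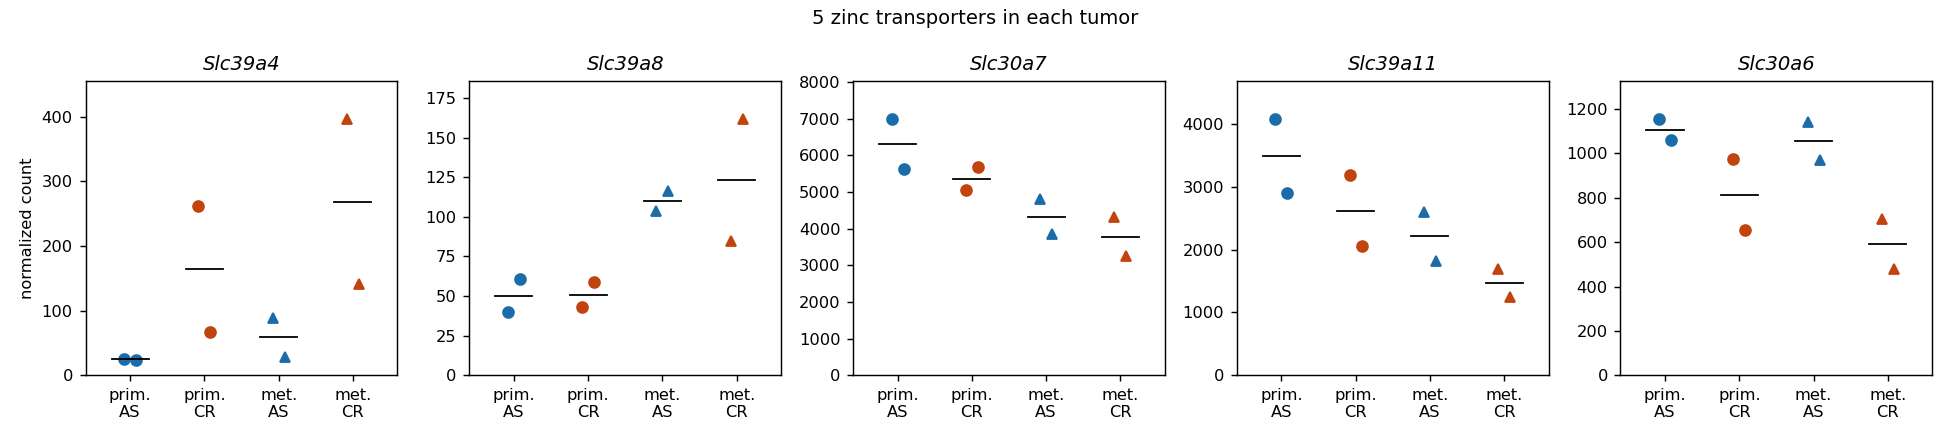
Normalized counts of Slc39a4, Slc39a8, Slc30a7, Slc39a11 and Slc30a6 in each tumor (points) with the mean of each pair (line), by group. The panels have their own scales from 0. Slc39a4 reaches 396 in metastatic CR1, and Slc39a8 separates primary from metastatic tumors.

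The other importers gave no call. Slc39a1, the ZIP most often linked to zinc uptake in prostate, had log2 fold changes of -0.14 (SE 0.17, -0.52 to 0.24) by tumor type and -0.16 (SE 0.15, -0.50 to 0.18) by phenotype. Slc39a6 and Slc39a10, which form a complex in the plasma membrane, were the 2 besides Slc39a4 and Slc39a8 with a positive value by tumor type, 0.29 (SE 0.17) and 0.28 (SE 0.21). Slc39a3, a ZIP of the same subfamily as Slc39a1, was the most negative importer by phenotype at -0.75 (SE 0.32, -1.48 to -0.02; edgeR adjusted p = 0.162). Slc39a9, Slc39a13 and Slc39a14 lay between -0.23 and -0.01 by tumor type and between -0.14 and -0.05 by phenotype.

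Whether the difference between tumor types itself differed between phenotypes was tested by the interaction. Of 18889 genes 0 (0%) passed by edgeR, with 517 at an unadjusted p under 0.05, and 0 of the 24 zinc genes tested passed or reached an unadjusted p under 0.05. DESeq2 called 2 genes and limma-voom 0, neither a zinc gene, with 570 and 553 genes at an unadjusted p under 0.05. For Mt1 the interaction was 0.50 (95% interval -0.44 to 1.44) and for Slc39a4 -0.60 (-3.16 to 1.96) on the log2 scale, so the design left wide room on both sides.

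Lists of genes tied to zinc and to other inducers of metallothioneins were set beside these results. By tumor type 0 genes of any list passed. By phenotype 12.2% of all genes passed, which is the share to set beside each count that follows. Of these lists, 1 of 10 other zinc carriers passed, Tmc6, a protein that binds the Slc30a1 transporter, which was lower in CR tumors (log2 fold change -0.92, SE 0.18, edgeR adjusted p = 0.0162). The median of that list was 0.01. Of 7 other genes linked to MTF1, 1 passed, Pgf, a growth factor of the VEGF family, at -1.32 (SE 0.28, edgeR adjusted p = 0.0222), and the median was -0.28.

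Of 11 genes of citrate metabolism 2 passed, both lower in CR tumors. They included Idh3a, which encodes a subunit of the mitochondrial isocitrate dehydrogenase, at -1.02 (SE 0.20, edgeR adjusted p = 0.0184). Of the 11, 8 had a negative log2 fold change, and the median was -0.24.

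Metallothioneins are also induced by glucocorticoids, oxidative stress and interleukin 6. Of 10 glucocorticoid-induced genes 2 passed by phenotype: Errfi1 rose (0.81) and Tsc22d3 fell (by 1.61 on the log2 scale), and the median was 0.03. By tumor type 9 of these 10 were negative, with a median of -0.29 (-0.03 over all genes). Of the 10, 2 had an unadjusted p under 0.05, beside 2.68% of all genes. The summed normalized count of the 10 was 90897 to 107425 in primary and 65371 to 84491 in metastatic tumors. Such sums were not compared with sums of other genes. In the same comparison 7 of 12 oxidative and metal stress genes were negative (median -0.04). So were 7 of 10 acute phase genes (-0.24) and 3 of 7 other genes linked to MTF1 (0.12). The part of any of these responses in the values of Mt1 and Mt2 was not tested. Of 12 oxidative and metal stress genes 3 passed by phenotype: Gclm rose (0.81) while Srxn1 and Hspa1b had log2 fold changes of -0.85 and -1.04, and the median was -0.32. Of 10 acute phase genes 3 passed: Saa3, the only one of the 10 with a positive value, rose (2.06), while Hp and Orm1 were at -2.09 and -3.88. At an unadjusted p under 0.05 there were 7 of the 10, of which 6 were lower. Over all 17104 genes there were 4932 at that threshold by phenotype, of which 2491 were lower. The median of the 10 was -0.79, beside -0.01 over all genes.

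The labelled tissue was checked against markers of prostate epithelium. Krt8 (normalized counts of 2159 to 42146) was high and Hoxb13 (370 to 2821) was present in every tumor. Krt18, Cdh1, Epcam, Pbsn and Tmprss2 were at most 36.0 in any tumor. Genes of seminal vesicle and anterior prostate secretion summed to 2.88 to 431. The 6 markers of prostate basal epithelium summed to 28641 to 53592, and a single gene among them reached 33888, so the sum does not describe all 6. The luminal list is given only in part. Correlations of log2 normalized counts between tumors, across genes that are not independent replicates, ranged from 0.908 to 0.982.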

How the data were processed

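RNA was sequenced from 8 Myc-CaP tumors. Per the methods, ribosomal RNA was depleted, stranded libraries were made and paired-end reads were sequenced. The authors kept reads with a unique match to mm10, allowing 2 mismatches, and deposited raw counts per gene, without normalization. The methods name Bowtie, whereas the submitters' processing notes list TopHat2 2.0 and CASAVA 1.8.2. The annotation release and the counter are not given in the sources used here. A gene with near-identical copies loses reads at this step.

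Counts were tested in R 4.3.3 with edgeR 4.0.16 (filterByExpr, TMM factors, quasi-likelihood test, Benjamini-Hochberg adjustment over all genes tested, threshold 0.05). The study used DESeq, for which edgeR stands in. The study gives fewer primary tumors than were labelled, so all 4 were used. Tumor type was tested alone, phenotype with tumor type as a term, and the interaction over the 4 groups. Standard errors are the absolute log2 fold change divided by the square root of F, with 95% intervals from the t distribution. DESeq2 1.42.0, limma 3.58.1 (voom), other normalizations, filters and lengths, subsets, possible pairings and each tumor left out were alternatives. The fits were also run on simulated counts of independent tumors with added fold changes, and no result given here rests on that run. Total counts of 20905806 to 91886163 make counting error small for all but the genes of low level.

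The 30 genes and the lists were chosen with earlier results of these data known. Values in every tumor are given for Mt1, Mt2, Mtf1 and Slc30a1, for each gene called, and for the 3 with the smallest p in each comparison. From each list at most 4 called genes are named, by size of change. Some listed genes are not reported here. Gene models are from GENCODE M21 (30 of 30 identifiers matched) and promoters from RefSeq GRCm38.p6. Shared reads were looked for by matching windows of read length along the longest transcript of each gene to all other transcripts with up to 2 mismatches. Sequences were read with Python 3.11.15 and figures drawn with matplotlib 3.10.9.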

Additional observations from a re-analysis of the deposited data

Results flagged for a closer look

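Samples far from the others of their phenotype or tumor type were looked for in the 9 genes described tumor by tumor, in 36 groups of 4, of which chance flags about 1 in 20. Mt2 in primary AS1 (normalized count 7780) stood apart from the other AS tumors, which were at 4316 to 4850. The gap took 0.846 of the range of the group, which is above the limit for 4 samples at the 95% level. Slc39a4 in metastatic AS1 (88.7) stood apart from the other AS tumors, at 23.7 to 29.1, with a gap of 0.917 of the range. Without metastatic AS1 the log2 fold change of Slc39a4 between phenotypes was still called.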

How the results depend on the processing

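For metastatic against primary, 0 genes and 0 zinc genes were called under all 22 alternatives, among them a block for each of the 4 ways to pair metastatic and primary tumors, since the labels do not give the pairs. The interaction gave 0 zinc genes under all 9, although without primary CR2 it called 82 genes in all.

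Between phenotypes the number of genes called was 2081, and it was 3544 by DESeq2, 4 in primary tumors alone, 974 in metastatic tumors alone, 722 without both primary CR2 and metastatic CR2 (an alternative chosen after seeing the data) and 481 (without metastatic AS1) to 4133 (without primary CR1) with 1 tumor left out. The number of zinc genes called was 1, and it was 2 by DESeq2, 2 when every gene with at least 1 count was kept, 0 in primary tumors alone, 0 in metastatic tumors alone, and 0 to 4 with 1 tumor left out. The 4 came without primary CR1 (Slc39a4, Slc30a6, Slc39a11 and Slc39a3), and the 0 without primary AS1, primary AS2, metastatic AS2 or metastatic CR1. The second gene by DESeq2 and with the wider filter was Slc30a6. The cause was not tested.

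Fold changes that were not called turned sign in some settings. Between phenotypes Mt1 was -0.15 and Mt2 -0.053 in primary tumors alone, and Mt1 ranged from -0.015 (without metastatic CR1) to 0.26 (without primary CR1) with 1 tumor left out. Slc39a8 was -0.030 with every gene of at least 1 count, -0.30 without both CR2 tumors and -0.0019 in primary tumors alone, and ranged from -0.16 to 0.24 with 1 tumor left out. By tumor type Slc39a4 ranged from -0.15 (without metastatic CR1) to 2.12 (without primary CR1). The cause of these changes was not tested.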

Other observations

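Copper and iron genes were examined as neighbours of zinc handling. Of 20 tested, 4 passed between phenotypes, beside 12.2% of all genes, and 0 between tumor types. Trf, which encodes the iron carrier transferrin, was 2940 to 3941 in AS and 4941 to 19633 in CR tumors, a log2 fold change of 2.02 (SE 0.40, edgeR adjusted p = 0.0177). The copper importer gene Slc31a1 (-0.60), its relative Slc31a2 (-1.15) and the copper chaperone of cytochrome oxidase Cox17 (-1.0) were lower in CR tumors. The median over the 20 was -0.43.

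Of 12 tested genes for zinc-binding secreted and surface enzymes 2 passed between phenotypes, beside the same 12.2%. Folh1, which encodes the prostate-specific membrane antigen, had a log2 fold change of 2.51 (SE 0.61, edgeR adjusted p = 0.0331), with overlapping phenotypes and 51180 in primary CR2. Ace was at -1.39 (SE 0.39, edgeR adjusted p = 0.0488). The median over the 12 was 0.91.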
